A study of Mus musculus and Rattus norvegicus with 21 samples.

Results

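Trimethylation of histone H3 at lysine 4 (H3K4me3) was compared between thyroid glands of Glis3-deficient mice on a low iodide diet (Glis3KO-LID) and of wild-type mice on the same diet (WT-LID). These were 2 of the 21 samples of the series, 1 immunoprecipitated library in each group. The series also held 1 H3K4me3 library each for both genotypes on a normal diet (Glis3KO-ND and WT-ND), which are used here only to show how far the LID difference also appeared on the ND. All mice were labelled C57BL/6 and 1 month old. The Glis3KO mice carried the allele written B6.Glis3<tm2(mCherry)Amj> in the labels, whereas the methods of the study give it as tm3, and neither source used here says how many animals went into a library. The LID was the TD.95125 diet and the ND the NIH-31 diet. The comparison covered the numbered chromosomes, on which the Glis3KO-LID list held 15235 peaks and the WT-LID list 16339.

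H3K4me3 is placed by methyltransferase complexes around the start sites of genes that are transcribed or poised, and is found above all at promoters rich in CG dinucleotides. In thyroid follicular cells, thyroid stimulating hormone (TSH) acts through its receptor to raise iodide uptake and thyroid hormone (TH) synthesis, and a diet poor in iodide raises TSH. GLIS3, a zinc finger transcription factor (TF), is required for this response, and the TFs PAX8, NKX2.1, FOXE1 and HHEX are needed to form the gland and to keep its identity. The deposited peaks carry a position and no height, so the quantities available were whether a promoter had a peak and how wide that peak was.

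Peaks were narrower and fewer in Glis3KO-LID. They covered 21.99 Mb in Glis3KO-LID and 26.07 Mb in WT-LID, with median widths of 1305 and 1467 bp, against 24.75 Mb in Glis3KO-ND and 25.53 Mb in WT-ND with medians of 1411 and 1415.5 bp. The number of sequencing reads is unknown from these files, and genotype cannot be told apart from the library. With 1 library in each group no test between genotypes was possible. The 95% intervals given below (Wilson for shares, order statistics for medians) cover only the counting of regions or genes, which are not replicates.

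In the gland as a whole, the promoters of follicular cell TFs carried wide H3K4me3 in both libraries. The widest peaks of Pax8, Nkx2-1, Foxe1 and Hhex measured 3791 to 7447 bp, and Tshr and Slc5a5 were also marked. Tg, which encodes thyroglobulin and defines the follicular cell, had no peak within 1 kb of its start site in WT-LID or in WT-ND. The nearest WT-LID peak to it lay at -91870 bp. A promoter without a called peak may still carry the mark. Of the other cell types, none of 13 immune and none of 8 inflammation genes were marked in either library. Endothelial markers were marked at 9 of 12 genes in Glis3KO-LID and 10 of 12 in WT-LID, with summed peak widths of 15.09 and 18.07 kb. For fibroblast markers the counts were 4 and 6 of 12 and the sums 9.65 and 12.56 kb, and for C cell markers 6 and 6 of 10 with sums of 10.88 and 7.97 kb. Without Nkx2-2, whose peak overlapped one in WT-LID that lay outside the window, the C cell sums were 7.85 and 7.97 kb. In whole glands, fewer cells of a type and less mark per cell cannot be told apart. On chromosome Y, outside the numbered chromosomes, there were 4 peaks in Glis3KO-LID, 2 in Glis3KO-ND and 0 in either WT list. The labels and methods used here do not state the sex of the mice, and its part in the results was not tested.

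A set of promoter sequences shows the range of CG content over which the mark was compared. The stretches lie 220 to 71 bases before the annotated start site, are written 5′ to 3′ on the strand of the gene, come from RefSeq on GRCm38 (mm10), and have CG dinucleotides in capitals. The first 5 are promoters that were marked more widely or solely in WT-LID, and Hhex and Duox1 are given for contrast as a promoter marked widely in both libraries and one marked in neither.
Slc5a5 (sodium-iodide symporter, chr8:70892828-70892977, minus strand): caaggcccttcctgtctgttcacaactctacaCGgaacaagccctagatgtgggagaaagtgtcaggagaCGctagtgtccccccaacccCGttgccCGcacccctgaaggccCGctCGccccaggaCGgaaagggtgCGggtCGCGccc
Duox2 (dual oxidase, chr2:122298298-122298447, minus strand): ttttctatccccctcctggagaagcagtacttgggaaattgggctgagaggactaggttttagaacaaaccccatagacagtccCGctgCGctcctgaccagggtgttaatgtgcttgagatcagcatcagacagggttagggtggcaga
Adm2 (adrenomedullin 2, chr15:89322500-89322649, plus strand): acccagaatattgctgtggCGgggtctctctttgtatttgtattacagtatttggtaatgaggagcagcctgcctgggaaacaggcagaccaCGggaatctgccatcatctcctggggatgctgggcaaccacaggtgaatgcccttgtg
Ano1 (calcium-activated chloride channel, chr7:144738644-144738793, minus strand): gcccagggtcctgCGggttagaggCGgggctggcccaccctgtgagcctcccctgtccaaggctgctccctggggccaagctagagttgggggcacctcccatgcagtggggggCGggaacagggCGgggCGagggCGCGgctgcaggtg
Aqp1 (water channel, chr6:55336079-55336228, plus strand): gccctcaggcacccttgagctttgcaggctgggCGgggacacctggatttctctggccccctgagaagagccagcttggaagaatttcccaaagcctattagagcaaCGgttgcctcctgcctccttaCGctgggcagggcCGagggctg
Hhex (homeobox TF, chr19:37434621-37434770, plus strand): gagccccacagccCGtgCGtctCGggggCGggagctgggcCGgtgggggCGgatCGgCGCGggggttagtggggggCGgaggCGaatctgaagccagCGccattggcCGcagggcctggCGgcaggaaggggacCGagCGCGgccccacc
Duox1 (dual oxidase, chr2:122315452-122315601, plus strand): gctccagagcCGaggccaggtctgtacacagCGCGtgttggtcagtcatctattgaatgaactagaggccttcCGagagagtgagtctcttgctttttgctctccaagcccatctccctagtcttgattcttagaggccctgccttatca
There were 17 CG dinucleotides in the Hhex stretch and 10 in that of Slc5a5. The Adm2 and Duox2 stretches held 2 each, the Aqp1 stretch 4 and the Ano1 stretch 7, while Duox1, which had no peak within 1 kb in any of the 4 H3K4me3 libraries, held 4.

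Promoters were then compared by CG content over all genes that could be matched. In windows of 300 bases (250 before to 50 after the start site), the median number of CG dinucleotides was 12 at 192 genes marked in Glis3KO-LID only and 12 at 665 genes marked in WT-LID only, against 22 at 9576 genes marked in both and 3 at 5563 genes marked in neither. Genes marked in a single library had intermediate CG content in both directions. The TATA box (TATAAA, either strand) was found in 9.9% of the windows of Glis3KO-LID-only genes (6.43 to 14.9%), 10.7% of WT-LID-only genes (8.55 to 13.3%), 6.21% of genes marked in both and 25.9% of unmarked genes, against 13.3% of all 15996 windows. The letters CAAGTG, bound by NKX2 factors, occurred in 17.7% (13 to 23.7%) and 13.2% (10.9 to 16%) of the windows of Glis3KO-LID-only and WT-LID-only genes, against 9.99% of genes marked in both, 17.1% of unmarked genes and 12.7% of all windows. GCNTGAC, a core of Pax sites, occurred in 16.1% (11.6 to 22%) and 12.6% (10.3 to 15.4%) of them, against 12% of genes marked in both, 9.47% of unmarked genes and 11.2% of all windows. A GLIS box (TGGGGGGT) was in 2.08% of Glis3KO-LID-only, 0.902% of WT-LID-only, 1.44% of both, 1.13% of unmarked and 1.32% of all windows. Each motif was searched on both strands, no motif contains another, and a match is a string of letters, not a bound site.

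The first question was whether shared promoter regions had narrowed. A shared promoter region was a pair of overlapping peaks, 1 in each library, of which at least 1 lay within 1 kb of the start site of a curated protein-coding transcript. There were 11045 such regions. In Glis3KO-LID 8014 of them (72.6%, 71.7 to 73.4%) were narrower than in WT-LID, 2964 were wider and 67 had the same width. The median width was 1489 bp in Glis3KO-LID and 1715 bp in WT-LID, the median difference was -180 bp and the median ratio 0.892 (log2 -0.17, from -0.17 to -0.16). Differences of at least 1.5-fold were few and mostly in one direction, with 1472 regions (13.3%) narrower and 206 (1.87%) wider.

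On the ND the same comparison gave 54.0% of 11331 regions narrower in Glis3KO-ND, with a median difference of -27 bp and a median log2 ratio of -0.02. The 570 regions (5.03%) narrower by 1.5-fold there stood against 444 (3.92%) that were wider. Over the 10477 promoter regions with a single peak in each of the 4 libraries, Glis3KO-LID was the narrowest in 47.5% and WT-LID the widest in 36.0%. In these regions the median log2 ratio was -0.10 for Glis3KO-LID over Glis3KO-ND and 0.03 for WT-LID over WT-ND, so Glis3KO-LID was narrower and WT-LID slightly wider than the ND library of its own genotype. The log2 ratios of single regions on the LID and on the ND were nearly unrelated (Pearson r = 0.01 and Spearman rho = 0.02 over 10477 regions that share neither library, as a description). Regions away from annotated promoters were narrower to a like extent on the LID, with a median log2 ratio of -0.16 over 1907 regions, and 62.98% of them were narrower.

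**Figure D1:**
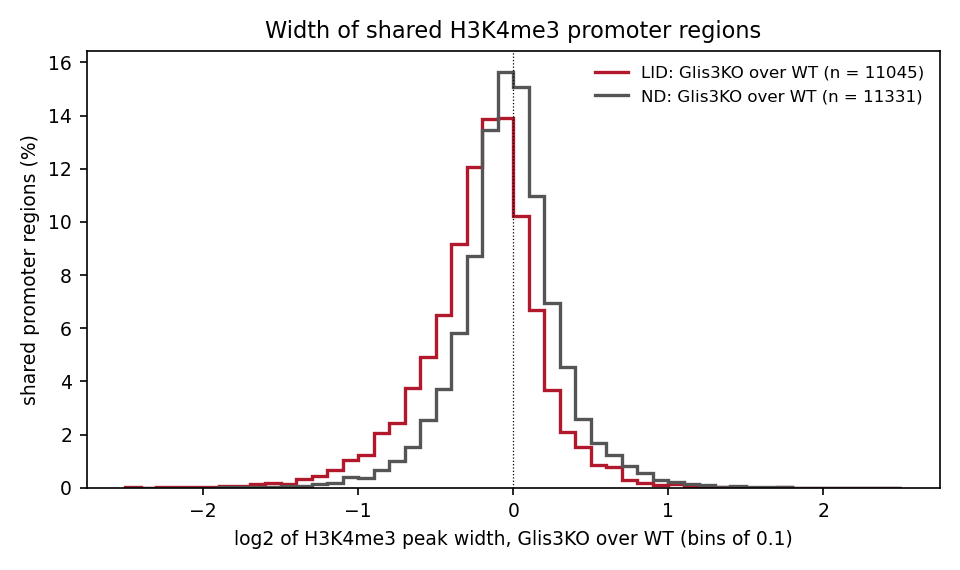
Distribution of the log2 ratio of H3K4me3 peak width, Glis3KO over WT, over shared promoter regions on the LID (red, n = 11045) and on the ND (grey, n = 11331), as the percentage of regions in bins of 0.1, with values beyond 2.5 in either direction put in the last bin. The LID distribution is displaced to the left (median -0.17), whereas that on the ND is centred close to 0 (median -0.02).

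The narrowing appeared on every chromosome and at both edges. Over the 19 numbered chromosomes, the share of narrower regions ranged from 68.4% on chromosome 3 to 75.4% on chromosome 11, and on the ND from 51.2% to 59.1%. At the 10055 regions with start sites on 1 strand, the WT-LID peak reached beyond the Glis3KO-LID peak by a median of 66 bp upstream and 98 bp downstream. The Glis3KO-LID peak lay inside the WT-LID peak at both edges in 44.0% of these regions and outside it at both edges in 10.8%. Regions with an H3K27me3 peak in Glis3KO-LID had a median log2 ratio of -0.13 (n = 1917), against -0.17 in regions without one (n = 9128). H3K27me3 is the mark of Polycomb repressive complexes.

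The largest differences were ranked over regions with a single peak in each LID library. The regions of Duox2 and Foxe1, which held more than 1 peak in Glis3KO-LID, did not enter the ranking and are described with the thyroid genes. The 10 largest losses in bp included Nkx1-1, Col4a1 with Col4a2, Onecut2, Tmem88 with Cyb5d1 and Naa38, Tmem204, Ackr3, Heg1, Cdca3 with Usp5, and Bcl11b. Nkx1-1, a homeobox gene, had a peak of 975 bp in Glis3KO-LID and 5186 bp in WT-LID, beside 2604 bp in Glis3KO-ND and 3237 bp in WT-ND. The region between Col4a1 and Col4a2, the divergent genes of basement membrane collagen, was 3608 bp wide in Glis3KO-LID and 6980 bp in WT-LID, with 3468 and 3592 bp in Glis3KO-ND and WT-ND, so WT-LID stood apart from the other 3 libraries. Ackr3, a chemokine scavenging receptor, had 1485 bp in Glis3KO-LID and 4310 bp in WT-LID. Heg1, which acts in vessel development, had 1614 bp in Glis3KO-LID and 4366 bp in WT-LID.

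The 10 largest gains were smaller. They included Nr1d1, Id2, Acss1, Man2a1, Pim3, Lrrfip1, Stk11, Sema7a and Itprip and lay between 1613 and 2282 bp, whereas the losses ranged from 2570 to 4211 bp. Nr1d1, which encodes the circadian repressor REV-ERBα, had 3584 bp in Glis3KO-LID and 1302 bp in WT-LID, but 2493 bp in Glis3KO-ND and 3185 bp in WT-ND. Id2, an inhibitor of basic helix-loop-helix factors, had 4618 bp in Glis3KO-LID and 2738 bp in WT-LID, against 3320 and 4209 bp in Glis3KO-ND and WT-ND. Both genes were thus wider in Glis3KO on the LID and narrower on the ND.

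The regions were then divided by the NKX2.1 and PAX8 peaks that lay in them, since these TFs share regulatory regions with GLIS3. The factor libraries were labelled WT mice on the LID, but the methods of the study describe older Glis3-EGFP mice. By the methods, these were also on the LID for longer than the mice of the histone libraries. Factor and histone peaks may thus come from different mice and different times on the LID. Of the 11045 shared promoter regions, 1964 held peaks of both factors, 2916 of PAX8 only, 1394 of NKX2.1 only and 4771 of neither. The median log2 ratio was -0.17 with both factors (-0.19 to -0.16), -0.16 with PAX8 only (-0.17 to -0.15), -0.17 with NKX2.1 only (-0.19 to -0.16) and -0.17 with neither (-0.18 to -0.16). Regions with both factors minus regions with neither gave a difference of -0.0065, with an interval from -0.0224 to 0.0095 made from the widths of the intervals of the 2 medians. Over peaks of at least 1 kb this difference was -0.0285 (-0.0464 to -0.0106), an interval that lies below 0. The share narrower was 72.6%, 73.4%, 74.7% and 71.4% in the same order.

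Factor-bound regions were wider to begin with. Their median width, averaged over the ND libraries that the comparison does not use, was 1959.25 bp with both factors and 1475.5 bp with neither. Loss in bp was larger, with a median of -228 bp with both factors and -155 bp with neither. Within bins of ND width the medians of regions with both and with neither factor were -0.20 and -0.22 under 1 kb, -0.20 and -0.17 from 1 to 1.5 kb, -0.18 and -0.17 from 1.5 to 2 kb, -0.18 and -0.13 from 2 to 2.5 kb, and -0.14 and -0.11 from 2.5 kb upwards. The intervals of the medians with both and with neither overlapped in every bin. Relative narrowing was largest in the narrowest regions and smallest in the widest, with medians of -0.23 and -0.13 over all classes.

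**Figure D2:**
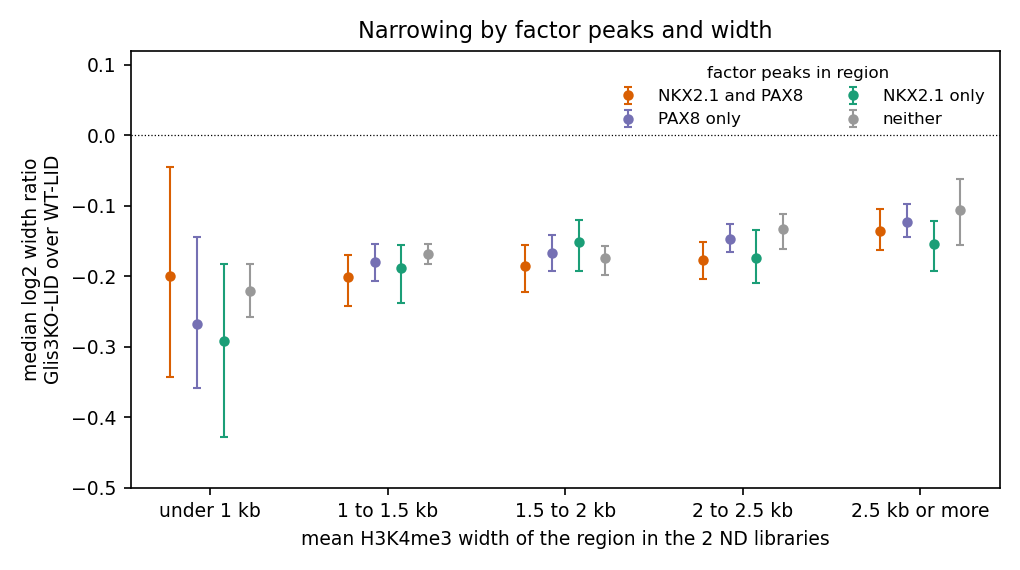
Median log2 width ratio of shared promoter regions, Glis3KO-LID over WT-LID, by the factor peaks in the region (colours) and by the mean width of the region in the ND libraries (horizontal axis); bars are order-statistic 95% intervals over regions. All 20 medians lie below 0, between -0.29 and -0.11.

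The parts of the regions that differed held fewer PAX8 peaks than the shared part. PAX8 peak midpoints numbered 133 per Mb in flanks covered in Glis3KO-LID only and 137 per Mb in flanks covered in WT-LID only, against 276 per Mb in the part covered in both libraries. For NKX2.1 the values were 129, 141 and 163 per Mb. Neither factor was denser in the sequence that was covered solely in WT-LID than in the common core. Flanks of both kinds lie at the edges of the regions, so position in the region and coverage in a single library cannot be told apart here.

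The second question was which genes were marked in a single library, with a peak within 1 kb of a start site. Of 20021 protein-coding genes, 11942 were marked in both libraries, 270 in Glis3KO-LID only (2.06% of the 13079 marked in either) and 867 in WT-LID only (6.63%). WT-LID-only genes outnumbered Glis3KO-LID-only genes on each of the 19 chromosomes. Most of these peaks were narrow. The median width was 631.5 bp at Glis3KO-LID-only genes and 911 bp at WT-LID-only genes, against 1790 bp in WT-LID at genes marked in both, and 113 of the 270 Glis3KO-LID-only genes had the smallest width in the lists, 501 bp. Of the WT-LID-only genes 495 were marked in both ND libraries and 126 in neither. For Glis3KO-LID-only genes the numbers were 91 and 79.

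Over all genes, differences on the LID were repeated on the ND about as often as they were turned round. Of 2984 genes that were marked in a single LID library or differed in width by at least 1.5-fold, 471 (15.8%) differed in the same direction and 454 (15.2%) in the opposite direction on the ND. H3K27me3 of Glis3KO-LID lay at 54.4% of the Glis3KO-LID-only genes (48.5 to 60.3%), 41.9% of the WT-LID-only genes (38.6 to 45.2%), 16.9% of genes marked in both and 14.5% of genes marked in neither. With H3K27me3 of WT-LID the shares were 23.3%, 22%, 7.39% and 2.94%.

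Genes without factor peaks were more often marked in a single library. Of the genes marked in WT-LID, 4.31% (3.55 to 5.23%) of those with both factors within 1 kb were absent from the Glis3KO-LID list, 3.27% (2.71 to 3.92%) with PAX8 only, 5.61% (4.6 to 6.82%) with NKX2.1 only and 10.2% (9.46 to 11.1%) with neither. The share with both factors minus that with neither was -5.92 percentage points (-7.08 to -4.76, from the widths of the Wilson intervals). The opposite direction had the same order. Of the genes marked in Glis3KO-LID, 1.36%, 0.829%, 1.51% and 3.66% of these classes were absent from the WT-LID list. Genes with both factors thus had 3.27 WT-LID-only genes for each Glis3KO-LID-only gene, and those with neither had 3.

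The difference between classes was smaller at genes of a given width. Among genes with a mean ND width under 1 kb, 31.2% (24.1 to 39.3%) of WT-LID-marked genes with both factors and 35.8% (32.8 to 38.9%) with neither were in WT-LID only. From 1 to 1.5 kb the shares were 6.64% (4.74 to 9.22%) and 5.56% (4.59 to 6.73%), and from 1.5 to 2 kb 1.25% and 2.06%. The intervals of both and neither overlapped in each bin. Genes without factor peaks more often had a narrow ND peak, with 925 of 5540 WT-LID-marked genes under 1 kb, against 141 of 2272 with both factors.

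**Figure D3:**
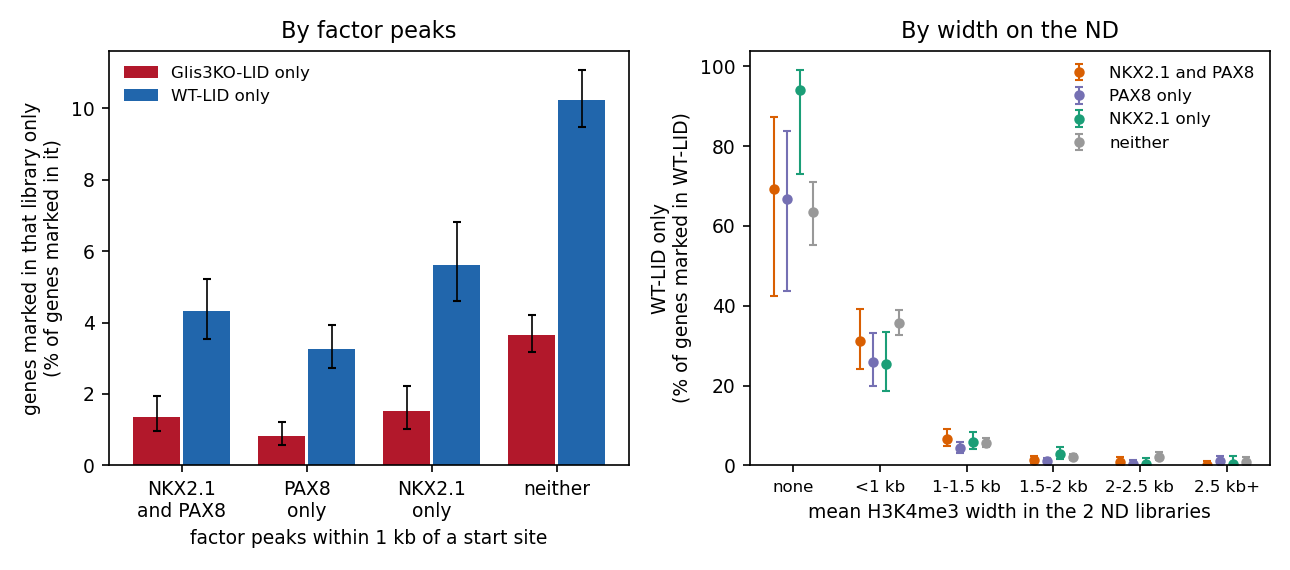
Left, genes marked in Glis3KO-LID only (red, percentage of genes marked in Glis3KO-LID) and in WT-LID only (blue, percentage of genes marked in WT-LID) by NKX2.1 and PAX8 peaks within 1 kb of a start site; right, the WT-LID-only percentage by factor class and mean ND width (none, no peak in either ND library); bars are Wilson 95% intervals. The 4.31% with both factors and 10.2% with neither on the left come close together within the width bins on the right, where wider genes have smaller shares.

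The 10 widest WT-LID-only peaks belonged to Spaca6, Gfi1, Tmem88, Onecut2, Thbd, Ctnnd1, Aqp1, Cyp26a1, Cdca3 and Hspa2, with widths from 3131 to 4751 bp in WT-LID. At Spaca6, Tmem88, Onecut2 and Cdca3 the region itself overlapped a Glis3KO-LID peak that lay outside the window of 1 kb, so these are narrowed rather than absent regions. The other 6 had no overlapping Glis3KO-LID peak. Gfi1, a zinc finger repressor, had 0 bp in Glis3KO-LID and 4093 bp in WT-LID, while Glis3KO-ND and WT-ND had 4207 and 3900 bp. Thbd, the endothelial thrombin receptor thrombomodulin, had 0 bp in Glis3KO-LID and 3584 bp in WT-LID, with 2636 and 2375 bp in Glis3KO-ND and WT-ND. Ctnnd1, the cadherin-binding p120 catenin, had 0 bp in Glis3KO-LID and 3464 bp in WT-LID, with 3724 and 3251 bp in Glis3KO-ND and WT-ND. At these genes Glis3KO-LID was the single library without a peak.

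Aqp1, a water channel abundant in endothelium, had another pattern. Its peak measured 3308 bp in WT-LID, whereas there was none in Glis3KO-LID or WT-ND and one of 501 bp in Glis3KO-ND, so WT-LID was the single library with a wide peak.

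The 10 widest Glis3KO-LID-only peaks included those of Tg, Tchh, Nkx2-2, Fat3, D630039A03Rik, Lbx1, Vgf, Cdkn1c and Nlrp6, with widths from 1824 to 5233 bp. At Tchh, Nkx2-2, Vgf and Nlrp6 a WT-LID peak overlapped the region from 1163, 1171, 1008 and 1664 bp from the start site, outside the window, and in a window of 2 kb the difference at Vgf was -172 bp. Tg, Fat3, D630039A03Rik, Lbx1 and Cdkn1c had no overlapping WT-LID peak. Fat3, an atypical cadherin, had 2741 bp in Glis3KO-LID and 0 bp in WT-LID, with 3122 and 2813 bp in Glis3KO-ND and WT-ND, and Cdkn1c, the imprinted inhibitor p57, had 1935 bp in Glis3KO-LID and 0 bp in WT-LID, with 2001 and 1825 bp in Glis3KO-ND and WT-ND. In these cases WT-LID was the single library without a peak.

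Of the 10 TH synthesis genes on numbered chromosomes, 7 were marked in both libraries, 2 in Glis3KO-LID only (beside 2.06% of all marked genes) and 1, Duox1, in neither. Of the 7, 5 were narrower in Glis3KO-LID, beside 73.1% of all 11942 genes marked in both. Slc5a5, Duox2 and Duoxa2 were narrower by at least 1.5-fold, beside 13.6% of all genes, and the last 2 share 1 peak. The median log2 ratio of the 7 genes was -0.19, beside -0.17 for all genes. Slc5a5, which encodes the symporter that carries iodide into the cell, had a peak of 501 bp in Glis3KO-LID (chr8:70892176-70892676) and 2320 bp in WT-LID (chr8:70890732-70893051). In Glis3KO-ND and WT-ND it had 1257 and 1371 bp, so Glis3KO-LID was below and WT-LID above both ND libraries. The Glis3KO-LID peak began 81 bp downstream of the start site, which the WT-LID peak covered. From read tracks, the study described some small changes in H3K4me3 and H3K27me3 at the Slc5a5 proximal promoter.

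Duox2, the oxidase that makes hydrogen peroxide for TH synthesis, and Duoxa2, its maturation factor, share a divergent promoter. In WT-LID a single peak of 5600 bp covered the region (chr2:122296958-122302557). In Glis3KO-LID it held 2 peaks, 1 of 2273 bp over both start sites (chr2:122297342-122299614) and 1 of 792 bp downstream of the Duoxa2 start site (chr2:122300888-122301679), which together covered 3065 bp. The ratio of the widest peaks (log2 -1.30) thus overstates the loss of covered sequence (log2 -0.87). In Glis3KO-ND the region also held 2 peaks, with 4436 bp in all, against a single peak of 4946 bp in WT-ND. The gap between the 2 Glis3KO-LID peaks held the midpoints of NKX2.1 and PAX8 peaks, 938 and 926 bp downstream of the Duoxa2 start site. Duoxa1 differed little, with 1347 bp in Glis3KO-LID and 1315 bp in WT-LID.

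Tg had a peak of 5233 bp in Glis3KO-LID (chr15:66670680-66675912) and none in WT-LID, and one of 4331 bp in Glis3KO-ND and none in WT-ND. In the study, Tg RNA did not differ significantly between the genotypes on the LID or, in WT, between the diets. The study also displayed read tracks of H3K4me3 and H3K27me3 at Tg for both genotypes on both diets, which are not among the values used here. Absence from a peak list does not show absence of the mark. Peak widths at Slc26a4, Tshr and Iyd differed by less than 1.5-fold. Slc26a4, the apical anion exchanger pendrin, had 1330 bp in Glis3KO-LID and 1438 bp in WT-LID, and Tshr, the TSH receptor, had 2459 and 2805 bp. Iyd, which recovers iodide from iodotyrosines, had 3214 bp in Glis3KO-LID and 2897 bp in WT-LID.

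Of the 8 TSH induced genes, 4 were marked in both libraries, 2 in WT-LID only (beside 6.63% of all marked genes) and 2 in neither. Their summed peak width was 5.3 kb in Glis3KO-LID and 10.76 kb in WT-LID, against 5.87 kb in Glis3KO-ND and 7.81 kb in WT-ND. Adm2, a vasodilator peptide of the calcitonin family, had no peak in Glis3KO-LID and one of 2431 bp in WT-LID (chr15:89322955-89325385), with 501 bp in Glis3KO-ND and 929 bp in WT-ND. NKX2.1 and PAX8 peaks were centred 3 bp downstream and 11 bp upstream of the Adm2 start site, and the WT-LID H3K4me3 peak began 235 bp downstream of it. Sod3, the extracellular superoxide dismutase, had 501 bp in Glis3KO-LID and 1814 bp in WT-LID, with 501 bp in Glis3KO-ND and 0 bp in WT-ND. Widths of 501 bp, here as at Adm2 in Glis3KO-ND, are the smallest in the lists. Cdh13, a cadherin without a transmembrane part, had 964 bp in Glis3KO-LID and 1875 bp in WT-LID. Ano1 had 0 bp in Glis3KO-LID and 626 bp in WT-LID.

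The other TSH induced genes differed by less than 1.5-fold or were unmarked. Dio1, the type 1 deiodinase, had 2681 bp in Glis3KO-LID and 2518 bp in WT-LID. Kcnq1, a potassium channel of the follicular cell, had 1157 bp in Glis3KO-LID and 1493 bp in WT-LID. Cdh16 and Pde4d had no peak in either LID library. In WT-ND, Cdh16 had peaks that covered 1002 bp of the window, the widest of 501 bp. An H3K27me3 peak of Glis3KO-LID lay at 3 of these 8 genes (Adm2, Cdh13 and Ano1) and at 5 of the 10 TH synthesis genes (Slc5a5, Slc26a4, Duoxa1, Duox2 and Duoxa2), where WT-LID had none. Over all genes marked in both libraries 16.9% had such a peak in Glis3KO-LID and 7.39% in WT-LID. Adm2 and Ano1 belong to the genes marked in WT-LID only, where these shares were 41.9% and 22%. Duox2 and Duoxa2 share a promoter and are not separate cases.

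The thyroid TF genes had wide peaks, and all 5 were marked in both libraries. Nkx2-1 had 6565 bp in Glis3KO-LID and 5569 bp in WT-LID. On the ND a single WT-ND peak measured 10517 bp, and the region held 2 peaks in Glis3KO-ND with 9345 bp in all. Pax8 had 5834 bp in Glis3KO-LID and 5717 bp in WT-LID, and Hhex 5133 and 5324 bp. Foxe1, which encodes a forkhead TF, had a single peak of 7447 bp in WT-LID (chr4:46341776-46349222). Glis3KO-LID had 2 peaks there, 1 of 3791 bp over the start site (chr4:46342493-46346283) and 1 of 1459 bp (chr4:46347400-46348858), with 5250 bp in all (log2 -0.50 against WT-LID). The ND libraries had single peaks of 7142 bp in Glis3KO-ND and 7231 bp in WT-ND. Glis3 itself had 2996 bp in Glis3KO-LID and 2676 bp in WT-LID. The deleted part of the gene is not given in the labels, so this value does not check the genotype.

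**Figure D4:**
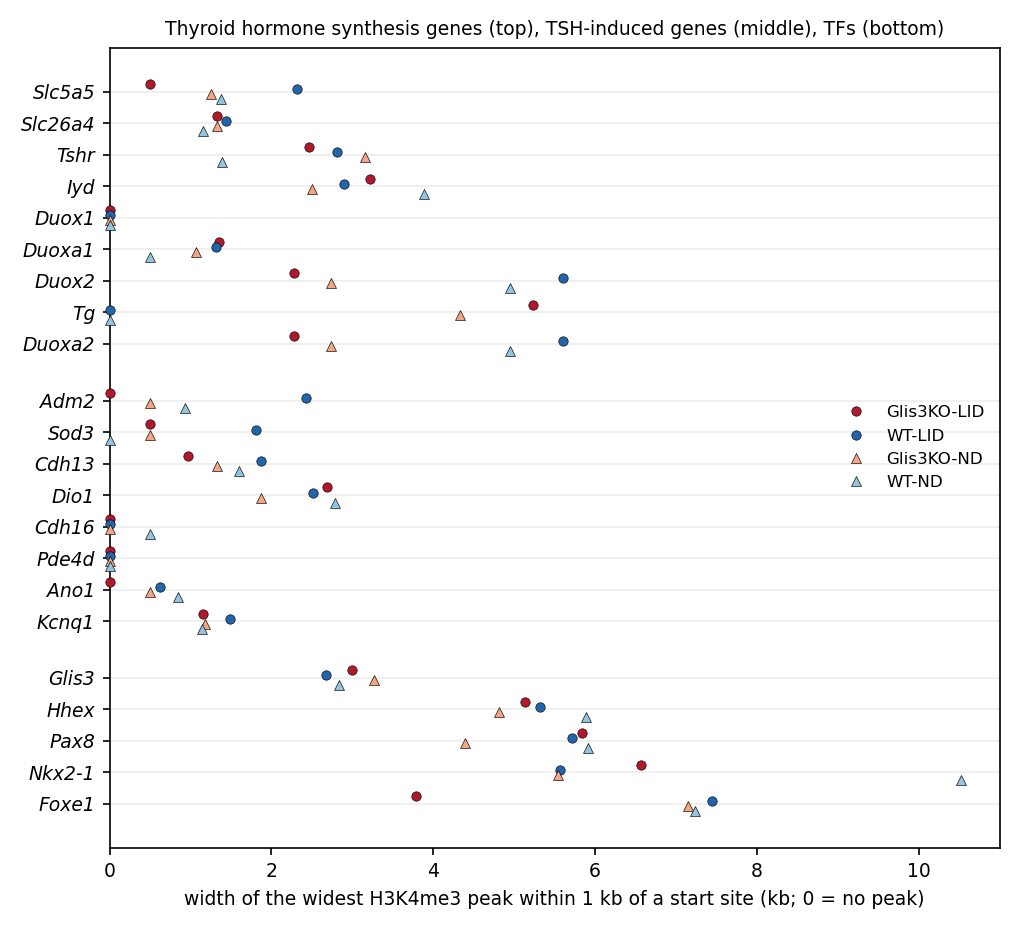
Width in kb of the widest H3K4me3 peak within 1 kb of a start site for the TH synthesis genes described here (top), TSH induced genes (middle) and thyroid TF genes (bottom) in Glis3KO-LID (red circles), WT-LID (blue circles), Glis3KO-ND (pale red triangles) and WT-ND (pale blue triangles), 1 library each; 0 stands for no peak, and of several peaks at a gene the widest is drawn. Slc5a5, Duox2, Duoxa2, Sod3, Cdh13 and Foxe1 have the red circle left of the blue one by at least 1.5-fold, Adm2 and Ano1 have the red circle at 0, and Tg has it at 5233 bp with the blue circle at 0.

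Other gene groups were described against the 73.1% of all genes narrower and the median of -0.17. Genes of these groups that were marked in both libraries and are named here were chosen after their values were seen. Of 12 cell cycle genes marked in both libraries, 10 were narrower, with a median of -0.40. Pcna, the sliding clamp of DNA replication, had 899 bp in Glis3KO-LID and 2170 bp in WT-LID, and Top2a was marked in WT-LID only (1320 bp). Of 6 interferon response genes 5 were narrower (median -0.40), and Irf9, Isg15 and Rsad2 were marked in WT-LID only with 1592, 788 and 885 bp. Of the 9 interferon response genes marked in either library, these 3 made 33.3%, beside 6.63% of all marked genes. Irf9, a subunit of the factor that carries the interferon signal, was also narrower on the ND, with 639 bp in Glis3KO-ND and 2090 bp in WT-ND. Isg15 had 0 and 501 bp there. Rsad2 lay the other way on the ND, with 1180 bp in Glis3KO-ND and 0 bp in WT-ND, as did Top2a with 1432 and 1027 bp.

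Housekeeping genes were narrower at 8 of 10 (median -0.28), near the 73.1% of all genes. At Tbp, the TATA-binding protein, 2 Glis3KO-LID peaks covered 2485 bp, against a single WT-LID peak of 4079 bp. Endoplasmic reticulum and secretory stress genes were narrower at 8 of 12 (66.7%, median -0.27) and H3K4 methyltransferase genes at 9 of 13 (69.2%, median -0.33), both shares being below that of all genes. Epithelial markers (5 of 12, median 0.03) and cAMP and immediate early genes (4 of 10, median 0.03) lay on the other side of 0. Epcam, an adhesion molecule of epithelia, had 2479 bp in Glis3KO-LID and 1375 bp in WT-LID, and Cdh1, the gene of E-cadherin, had 2368 and 1497 bp. Other epithelial markers lay the other way, such as Cldn7, a claudin, with 2051 bp in Glis3KO-LID and 2772 bp in WT-LID, and Krt8, a keratin, with 794 and 1879 bp in peaks that do not overlap each other. At Fos, an immediate early gene, the region was covered over 2991 bp by a single Glis3KO-LID peak and over 2885 bp by 2 WT-LID peaks. At Atf3, a stress-induced TF, 2 Glis3KO-LID peaks covered 2811 bp and a single WT-LID peak 4102 bp.

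Extracellular matrix (ECM) genes were marked in both libraries at 14 of 21 genes, with 8 narrower (median -0.08). Col1a1, Col1a2 and Col5a2, collagens of the interstitial fibrils, were marked in WT-LID only with 1556, 896 and 501 bp, and Col11a2 in Glis3KO-LID only with 848 bp. Of the 18 ECM genes marked in either library, 16.7% were in WT-LID only, beside 6.63% of all marked genes. At Col1a1 a Glis3KO-LID peak began 1334 bp downstream of the start site, inside the WT-LID peak but outside the window. Glis3KO-ND and WT-ND had 0 and 1619 bp at Col1a1, 1028 and 0 bp at Col1a2, and 1049 and 630 bp at Col5a2. Cdh5, the endothelial cadherin that was on this list, had 501 bp in Glis3KO-LID and 2096 bp in WT-LID, beside 744 and 501 bp in Glis3KO-ND and WT-ND. Widths of 501 bp, here as at Col5a2, are the smallest in the lists. Endothelial markers were marked in WT-LID only at Tie1 and Esam and in Glis3KO-LID only at Emcn, and the 8 shared ones had a median of 0.32. At Pecam1, an endothelial adhesion molecule, a single Glis3KO-LID peak covered 1662 bp and 2 WT-LID peaks 1246 bp. At Egfl7, a protein secreted by endothelium, 2 Glis3KO-LID peaks covered 3731 bp and a single WT-LID peak 6238 bp. Fibroblast markers in WT-LID only were Twist2 and Tcf21. For C cells, Calca and Chgb were marked in WT-LID only and Cckbr and Nkx2-2 in Glis3KO-LID only. Des and Stmn2 were marked in WT-LID only, and Dio2, the type 2 deiodinase, in Glis3KO-LID only with 501 bp.

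**Figure D5:**
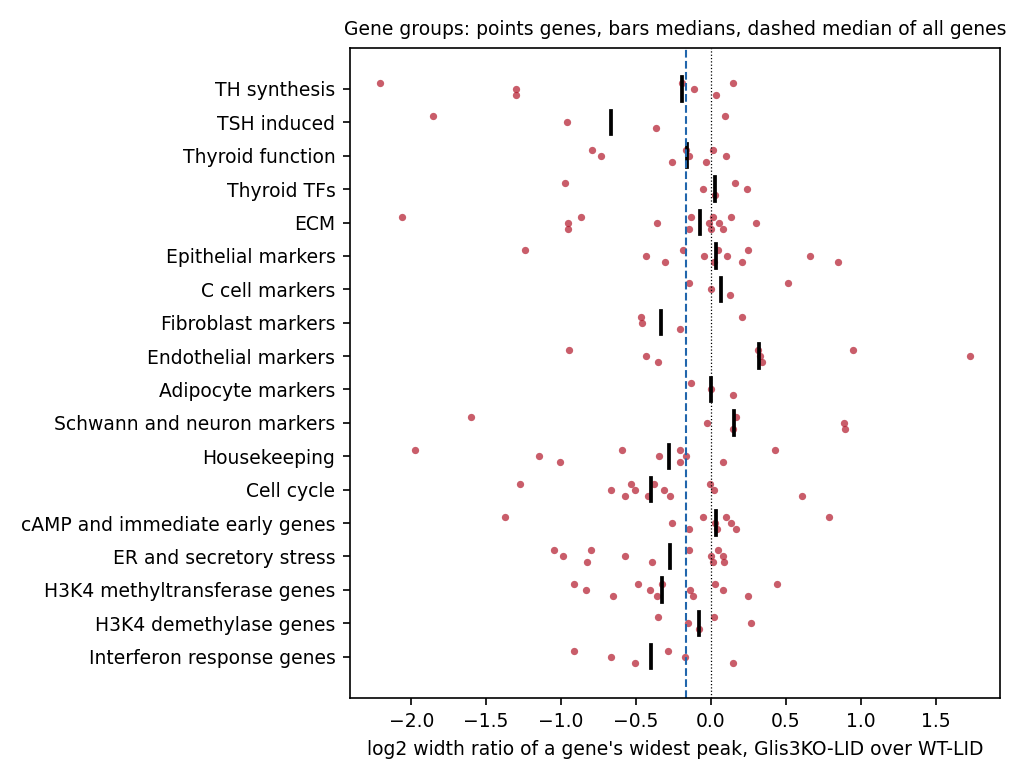
Log2 ratio of the widest peak of each gene, Glis3KO-LID over WT-LID, for genes marked in both libraries in groups with at least 3 such genes; points are genes, black bars group medians, and the dashed blue line the median of all genes (-0.17). The medians run from -0.66 for TSH induced genes (4 genes) to 0.32 for endothelial markers (8 genes), and single genes spread widely within most groups.

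The study listed genes bound by GLIS3, NKX2.1 and PAX8 by whether their RNA was less or more abundant in Glis3KO-LID relative to WT-LID. These lists were selected by RNA-seq on this contrast together with factor binding. The RNA-seq and the GLIS3 binding came from an earlier series, the NKX2.1 and PAX8 binding from this one. The lists are thus not independent of the factor peaks used here, and a relation of peak width to RNA was not tested. The study compared normalised read counts within 1 kb of start sites at GLIS3-bound genes whose RNA differed on this contrast. It reported no significant difference in H3K4me3 signal there. Peak width, used here, is another measure than read count. Of 344 symbols with lower RNA 330 were matched, and of 196 with higher RNA 159. Of 325 matched genes with lower RNA on numbered chromosomes, 208 were marked in both libraries, 6 in Glis3KO-LID only, 20 in WT-LID only and 91 in neither, and 168 of the 208 (80.8%) were narrower with a median log2 ratio of -0.28. Of 158 such genes with higher RNA, 119 were marked in both, 1 in Glis3KO-LID only, 8 in WT-LID only and 30 in neither, and 69 of the 119 (57.98%) were narrower with a median of -0.06. All genes marked in both libraries lay between the lists, with 73.1% narrower. Of the listed genes marked in either library, 2.56% with lower and 0.781% with higher RNA were in Glis3KO-LID only, beside 2.06% of all genes, and 8.55% and 6.25% were in WT-LID only, beside 6.63%. The lists hold factor-bound genes only. Of all marked genes with NKX2.1 and PAX8 peaks within 5 kb, 1.32% were in Glis3KO-LID only and 4.56% in WT-LID only. Beside these, both shares of the genes with lower RNA were higher. With higher RNA the Glis3KO-LID-only share was lower and the WT-LID-only share higher. These differences were not tested.

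The WT-LID-only genes with lower RNA are named for completeness and included Adm2, Aqp1, Cdc6, Tk1, Gins2, Foxj1, Adam19, Apoa2 and Gna14. Cdc6 and Gins2 act in the initiation of DNA replication and Tk1 makes thymidine nucleotides. Their WT-LID peaks measured 1200 bp at Cdc6, 788 bp at Gins2 and 1180 bp at Tk1, against none in Glis3KO-LID. The other 11 were 1700007K13Rik, Bfsp1, Chrdl2, Epo, Gjd2, Hhatl, Il18r1, Olfml2a, Proc, Sfrp5 and Spon2, with 501 to 1218 bp. In the opposite direction stood Art4, BC028528, C1qtnf1, Kcne1, Scpep1 and Serpinf1, whose Glis3KO-LID peaks measured 911 bp at Art4 and 501 bp at the others. Among genes with higher RNA, Aloxe3, Arhgef37, Clic3, Oplah, Scnn1a, Slc26a8 and Tuba8 were among those marked in WT-LID only, and Gm5148 was marked in Glis3KO-LID only.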

How the data were processed

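Chromatin immunoprecipitation sequencing peaks of mouse thyroid glands were analysed as the authors deposited them. The deposited values are the positions (start and end) of each peak, with no height, count or p-value, so the read number and its precision are unknown. Per the processing notes and methods of the study, reads were trimmed with Cutadapt 1.12, mapped to mm10 with Bowtie 1.2, deduplicated with Picard 1.110, and peaks were called with HOMER 4.10.3, bedtools 2.24.0 being also named. For the histone peaks, the sources used here do not state whether input was used.

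Peaks of Glis3KO-LID and WT-LID that overlapped by at least 1 bp were paired, and promoters were defined by start sites of curated protein-coding RefSeq transcripts (GRCm38), 1 kb either side. A gene's width is that of its widest peak in that window. Factor class was set by NKX2.1 and PAX8 peaks overlapping the region, or within 1 kb of a start site for genes. Genes named with values were all members of the TH synthesis, TSH induced and thyroid TF lists, the 10 genes with the widest peak in a single library and the 10 regions with the largest loss and gain in bp in each direction, and members of other lists marked in a single library. Members and lists were chosen with earlier results of these data known, and 8 of the 24 lists came from the study. Shares have Wilson and medians order-statistic 95% intervals. Promoter windows came from RefSeq, in which 8 of 13 genes sought were matched, while Tg, Sod3, Cdh13 and Foxe1 were among those that were not. Some genes that the naming rule covers are not reported here. Python 3.11.15, NumPy 2.4.6, SciPy 1.17.1 and matplotlib 3.10.9 were used, and the functions were tested on simulated data. Under 8 other settings (merged regions, overlap, start-site window, minimum width, list length, X and Y added, factor distance) the 6 main results and the widths of 61 named genes on numbered chromosomes were recomputed. Chromosomes X and Y, the H3K27me3 union and the rat peaks were not used in the comparison. The authors' H3K4me3 union of 21244 regions overlapped 100% of the peaks in each list and was used for that check only.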

Additional observations from a re-analysis of the deposited data

Results flagged for a closer look

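Of 61 named genes, 9 differed between the genotypes in one direction on the LID and in the other on the ND, counting differences in the widest peak of at least 1.5-fold, or a peak in 1 genotype only, on both diets. Other named genes, such as Nr1d1, Id2, Nkx2-1 and Slc26a4, also changed direction between the diets, but by less than 1.5-fold on at least 1 of them. The difference between diets was not tested, as there was 1 library in each group. Among all 2984 genes that differed on the LID by the same measure, 15.2% had the opposite direction on the ND and 15.8% the same. On the LID the width in Glis3KO minus that in WT was -1313 bp at Sod3, -3865 bp at Onecut2, -3308 bp at Aqp1, -2844 bp at Tmem204 and -2825 bp at Ackr3. On the ND it was 501 bp at Sod3, 1727 bp at Onecut2, 501 bp at Aqp1, 960 bp at Tmem204 and 902 bp at Ackr3. In the other direction, the LID difference was 2139 bp at Lbx1, 1965 bp at Vgf, 1824 bp at Nlrp6 and 1643 bp at Stk11, where the ND difference was -2374 bp at Lbx1, -2297 bp at Vgf, -1712 bp at Nlrp6 and -1278 bp at Stk11. Onecut2 is counted here by its gene window, in which Glis3KO-LID had no peak. At Tmem204 the ND difference is that of the widest peaks (1586 bp in Glis3KO-ND and 626 bp in WT-ND), whereas the whole LID region was covered over 2219 bp in Glis3KO-ND and 3452 bp in WT-ND, in the same direction as on the LID. At Sod3 the ND value comes from a Glis3KO-ND peak of 501 bp, the smallest width, that lay outside the LID region, which neither ND library covered. At Vgf and Nlrp6 a WT-LID peak lay just outside the window of 1 kb, 1008 and 1664 bp from the start site, so these LID differences depend on the window.

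Outside the numbered chromosomes, 4 H3K4me3 peaks lay on chromosome Y in Glis3KO-LID and 0 in WT-LID. They were found at Kdm5d (629 bp), Eif2s3y (501 bp), Uty (501 bp) and Ddx3y (501 bp). Glis3KO-ND had 2, at Uty (1009 bp) and Ddx3y (882 bp), and WT-ND had 0.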

How the results depend on the processing

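Of 48 values (6 results under 8 alternatives), 43 moved by less than the counting interval or by less than 1.5 times, and none was counted as reversed. A reversal was counted only where the main interval did not include the value for no difference. It could therefore not be counted for the log2 difference between regions with both factors and with neither, or for numbers of genes. With peaks of at least 1 kb, the median log2 ratio was -0.14, genes marked in WT-LID only numbered 1431, the log2 difference between regions with both factors and with neither was -0.0285 (-0.0464 to -0.0106), and the difference in the share of WT-LID-only genes was -7.31 percentage points. With a window of 500 bp the difference in the share of WT-LID-only genes was -4.60 points. With lists of equal length, 347 genes were marked in Glis3KO-LID only and 767 in WT-LID only. Among the 61 named genes, width differences moved by more than 1.5 times only with the window and the minimum width. The width difference at Vgf (1965 bp in a window of 1 kb) was 501 bp in a window of 500 bp and -172 bp in a window of 2 kb, because the WT-LID peak then entered the window. In windows of 500 bp and 2 kb that at Tchh (4788 bp) was 0 and 68 bp, that at Spaca6 (-4751 bp) 0 and -1181 bp, and that at Nlrp6 (1824 bp) 0 and 1044 bp. In a window of 2 kb it was 1513 bp at Nkx2-2 (3026 bp) and 32 bp at Duox1 (0 bp). With peaks of at least 1 kb it was -1875 bp at Cdh13 (-911 bp) and 0 at Ano1 (-626 bp). Where a region is split into several peaks, the widest-peak ratio overstates the difference, as at Duox2, Duoxa2 and Foxe1. No paired analysis was possible because each group had 1 library, and for the same reason no replicate could be left out. The number of reads is unknown, so depth could not be compared.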

Other observations

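Replication-dependent histone genes, a family without introns that is transcribed in S phase, were looked at after it was seen that several were marked in a single library. Of 63 such genes, 27 were marked in both LID libraries, 5 in Glis3KO-LID only, 16 in WT-LID only and 15 in neither, beside 2.06% and 6.63% of all marked genes in Glis3KO-LID only and WT-LID only. Of the 27, 16 were narrower in Glis3KO-LID, with a median log2 ratio of -0.13. On the ND, 2 were marked in Glis3KO-ND only and 9 in WT-ND only. These genes lie in clusters of near-identical copies, and their values are uncertain for that reason.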
